A study of Homo sapiens with 10 samples.

Results

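The genes described here are 31 that cells use to sense and answer a shortage of amino acids. They are 9 enzymes and transporters known as targets of the transcription factor ATF4, 5 regulators and other responsive genes, and 17 cytosolic aminoacyl-tRNA synthetases. A gene was taken where a probe set of the deposited table was annotated to its symbol alone. This held for 30 of the 31, out of 14232 genes measured in that way, and each of the 30 had 1 such probe set. PSPH, the phosphatase of the last step of serine synthesis, was found only on a probe set shared with another symbol and is not analysed here.

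RNA was measured on Affymetrix exon arrays in U2OS, a human osteosarcoma cell line. Cells received PD0332991 (palbociclib, an inhibitor of the kinases CDK4 and CDK6) or its solvent DMSO for 4 h, with 5 arrays per treatment that the labels call biological replicates. The labels state 1 mM PD0332991, which is doubtful, because culture work with this compound usually uses micromolar doses and the arrays hold no check of it. All 10 samples are the same line, grown in the same medium. The array names divide them into array set 1, with replicates 1 to 3 of both treatments, and array set 2, with replicates 4 and 5 of both.

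Values are log2 expression values, so a difference of 1 is a doubling. The table held 21980 probe sets, and array medians lay between 6.95 and 7.06. One library stood apart. DMSO replicate 1 had an interquartile range of 3.18 against 3.32 to 3.68 on the other arrays, and its mean correlation with the others was 0.963 against 0.979 to 0.984. Results that rest on it are therefore given with and without it. Of 7 markers of osteoblast and mesenchymal cells, COL1A1, SPARC, VIM and FN1 were bright, with DMSO means of 12.02, 11.97, 11.78 and 11.27. RUNX2 had 7.69, and COL1A2 (6.53) and ALPL (6.24) were below the median of every array. Of markers not looked for in this line, KRT8, an epithelial keratin, was also bright (11.73), while EPCAM, CDH1, PTPRC, CD3E and PECAM1 had DMSO means between 3.90 and 5.68.

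As background, uncharged tRNA activates the kinase GCN2, and endoplasmic reticulum stress activates PERK. Both phosphorylate the initiation factor eIF2, which lowers general translation and raises translation of ATF4. ATF4 then binds C/EBP-ATF response elements with partners of the C/EBP family and drives genes for amino acid synthesis, uptake and tRNA charging. ATF4 is controlled to a large part by translation of its mRNA, which expression arrays do not measure.

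Short promoter stretches are shown first, to give the letters of the response element core in those members whose promoters hold it. Many members are listed because they are known ATF4 targets. The presence of the core is therefore not independent of their choice and is given as a description only. RefSeq promoter windows, 250 bases before to 50 bases after each annotated start (GRCh38.p14), were searched on both strands for the response element core TGATGNAA. No other motif was searched. Windows were found for 25 of the 31 genes, and a gene with several starts counted once if any window held the core. The core was present in 10 of these 25 genes (40.0%), against 3.50% of the 11386 measured genes with a window and 4.46% of all 27305 genes with one. Members had 1.52 windows per gene and measured genes 1.44. The matches fell in ASNS, CHAC1 and SLC3A2 among 6 targets with a window, in 7 of 14 synthetases, and in 0 of the 5 regulators. Each stretch is printed 5′ to 3′ on the strand of the gene, and capitals mark the core in either orientation.
ASNS (chr7:97872458-97872487, minus strand): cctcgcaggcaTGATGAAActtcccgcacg
CHAC1 (chr15:40953251-40953280, plus strand): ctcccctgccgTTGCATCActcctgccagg
SLC3A2 (chr11:62881725-62881748, plus strand): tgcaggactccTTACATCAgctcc
AARS1 (chr16:70289675-70289704, minus strand): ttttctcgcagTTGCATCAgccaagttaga
CARS1 (chr11:3057407-3057436, minus strand): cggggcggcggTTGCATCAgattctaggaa
GARS1 (chr7:30594834-30594863, plus strand): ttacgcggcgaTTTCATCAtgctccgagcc
IARS1 (chr9:92293692-92293721, minus strand): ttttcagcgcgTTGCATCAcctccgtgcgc
MARS1 (chr12:57488053-57488082, plus strand): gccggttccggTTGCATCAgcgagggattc
NARS1 (chr18:57621804-57621833, minus strand): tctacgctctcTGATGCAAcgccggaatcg
TARS1 (chr5:33440956-33440985, plus strand): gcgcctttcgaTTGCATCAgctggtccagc

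In 6 of the 7 synthetases the matched bases read TTGCATCA or, on the other strand, TGATGCAA, and in GARS1 they read TTTCATCA. The core began 2 bases before the annotated start in CARS1, 4 before in MARS1, 13 before in IARS1, 2 after in TARS1 and 14 after in NARS1. These 5 of 14 synthetases thus had it within 20 bases of a start, against 0.483% of measured genes; this distance was set after the positions were seen. In AARS1 it began 187 bases before the start, in ASNS 68, in CHAC1 209 and in GARS1 33. Among the other lists, the core was found in 6 of 17 further amino acid response genes with a window, 1 of 14 mitochondrial synthetases, 1 of 8 eIF2 kinases and partners, 0 of 5 other cytosolic synthetase subunits and scaffolds, and 0 of 12 reference genes. A match describes the letters only and shows no binding.

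**Figure D1:**
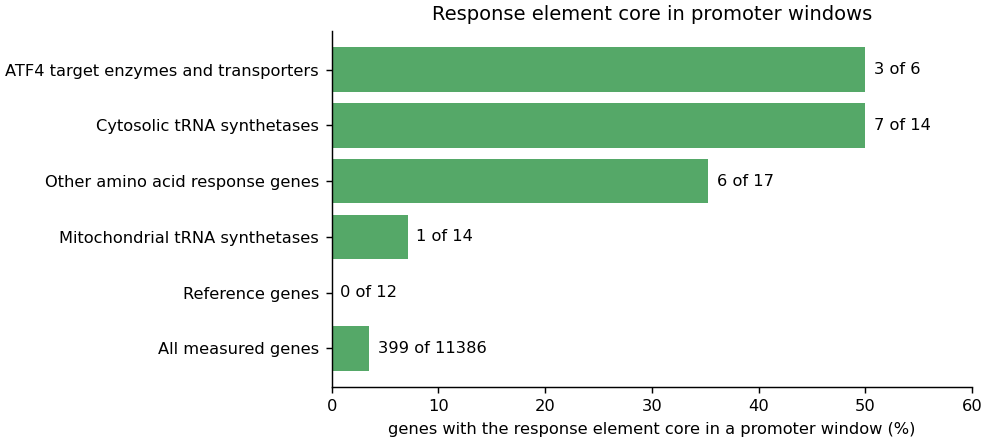
Share of genes, in percent, whose RefSeq promoter windows hold the response element core on either strand, for 5 gene lists and for all measured genes. Bars are labelled with genes matched of genes with a window. The ATF4 targets (3 of 6) and cytosolic synthetases (7 of 14) stand far above all measured genes (3.50%).

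After 4 h of PD0332991 none of the 30 genes passed the test, in either direction. The smallest adjusted p among them was 1.00 (limma, array set as a covariate, Benjamini-Hochberg adjustment over 21980 probe sets), and 0.05% of all probe sets passed at an adjusted p under 0.05. One member, CHAC1, had an unadjusted p under 0.05 with a higher mean in PD0332991, where 1.41% of all probe sets did. No member had one with a lower mean, where 2.76% of all probe sets did. Log2 fold changes of the 30 ran from -0.19 for ATF4 to 0.39 for CHAC1, which correspond to 0.875-fold and 1.31-fold. The 95% confidence interval included 0 for 29 of them. These intervals reached -0.63 at their lowest and 0.97 at their highest. The RNA came from whole cultures, in which fewer responding cells and less RNA per cell cannot be told apart.

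Of the regulators, ATF4 mRNA had the lowest log2 fold change of all members with all 10 arrays. Its values were 8.16, 8.29, 8.09, 8.13 and 8.25 on the DMSO arrays and 8.10, 8.01, 7.65, 8.11 and 8.09 on the PD0332991 arrays, in replicate order. The groups overlapped between 8.09 and 8.11, and PD0332991 replicate 3 lay well below the rest. The log2 fold change was -0.19 ± 0.11 (SE, n = 5 per group; 95% interval -0.44 to 0.05, limma adjusted p = 1.00), and it was -0.26 in array set 1 and -0.09 in array set 2. Without PD0332991 replicate 3 it was -0.11, and GARS1 was then lower (-0.13), as it was without DMSO replicate 2 or 3 and in array set 2 alone. DDIT3 encodes CHOP, a stress-induced C/EBP family factor downstream of ATF4. It was measured at 6.61, 6.69, 6.66, 6.70 and 6.87 in DMSO and at 6.72, 6.81, 6.94, 6.94 and 6.94 in PD0332991. Only DMSO replicate 5 reached into the PD0332991 range. Its log2 fold change was 0.17 ± 0.09 (SE; 95% interval -0.02 to 0.36, limma adjusted p = 1.00) and took nearly the same value in both sets, 0.17 and 0.16. All DDIT3 values were below the median of every array, where RMA compresses differences.

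Of the other members of this group, CEBPB and TRIB3 gave smaller differences, and that of VLDLR shrank without DMSO replicate 1. CEBPB, a C/EBP partner of ATF4, had means of 8.49 ± 0.19 in DMSO and 8.48 ± 0.10 in PD0332991 (SD, n = 5). TRIB3, a pseudokinase that restrains ATF4 and CHOP, had a log2 fold change of 0.05 ± 0.10 (SE), made of -0.06 in array set 1 and 0.20 in array set 2. Its level also differed between the sets, with means of 8.01 and 8.33. VLDLR, a lipoprotein receptor listed among ATF4-responsive genes, had a log2 fold change of 0.18 ± 0.13, and 0.07 ± 0.07 without DMSO replicate 1.

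CHAC1, an enzyme that degrades glutathione and is strongly induced by ATF4 under stress, had the highest log2 fold change. Its values were 8.49, 7.76, 8.12, 8.18 and 8.30 in DMSO and 8.86, 8.63, 8.33, 8.42 and 8.54 in PD0332991. The groups overlapped only through DMSO replicate 1, which lay above PD0332991 replicates 3 and 4. The log2 fold change was 0.39 ± 0.15 (SE, n = 5 per group; 95% interval 0.04 to 0.73, limma adjusted p = 1.00), with 0.48 in array set 1 and 0.24 in array set 2. Without DMSO replicate 1 it was 0.47 ± 0.14 (limma adjusted p = 0.542). In that fit 2.13% of all probe sets had an unadjusted p under 0.05 with a higher mean, and 3.72% with a lower one. All PD0332991 arrays then lay above all remaining DMSO arrays, which was so for 0.441% of probe sets. Without DMSO replicate 2, its lowest array, CHAC1 had a log2 fold change of 0.27, and PSAT1 was higher (0.50). PSAT1 was also higher without DMSO replicate 3 or PD0332991 replicate 1, 2 or 4. In array set 1 alone PSAT1 (0.49) was higher than CHAC1, and in array set 2 alone ASNS (0.27) was.

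ASNS makes asparagine and is the classic reporter of the amino acid response. It was measured at 9.52, 9.47, 9.50, 9.19 and 9.13 in DMSO and at 9.46, 9.51, 9.91, 9.33 and 9.52 in PD0332991. Most of these values overlapped, the DMSO arrays of set 2 were the lowest, and PD0332991 replicate 3 was the highest. The log2 fold change was 0.19 ± 0.11 (SE; limma adjusted p = 1.00), 0.20 ± 0.11 without DMSO replicate 1 and 0.11 without PD0332991 replicate 3.

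Of the serine pathway, PHGDH and PSAT1 catalyse the first and second steps from a glycolytic intermediate, and SHMT2 turns serine into glycine in mitochondria. PSAT1 was measured at 8.17, 9.70, 9.64, 8.87 and 8.98 in DMSO and at 9.79, 9.50, 9.69, 8.87 and 9.34 in PD0332991. DMSO replicate 1 was the lowest, and the other arrays of set 1 lay above all those of set 2. The log2 fold change of PSAT1 was 0.37 ± 0.27 (SE), and 0.08 ± 0.12 without DMSO replicate 1. PHGDH had a log2 fold change of 0.05 ± 0.16, and -0.09 ± 0.09 without that array. SHMT2 had -0.04 ± 0.11 and -0.11 ± 0.09 (limma adjusted p = 1.00 for all 3 genes).

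The 3 transporter genes encode the light chains of the cystine and glutamate exchanger (SLC7A11) and of the large neutral amino acid transporter (SLC7A5), and the heavy chain that both share (SLC3A2). SLC7A11 was measured at 9.21, 10.36, 10.28, 10.54 and 10.39 in DMSO and at 10.47, 10.55, 9.99, 10.50 and 10.73 in PD0332991. DMSO replicate 1 lay 1.07 below the next lowest DMSO array, and the other values overlapped. Its log2 fold change was 0.29 ± 0.22 (SE), and 0.08 ± 0.13 without that array. SLC7A5 had a log2 fold change of 0.01 ± 0.09, which was -0.018 after quantile normalization, and SLC3A2 had 0.05 ± 0.14. Both were slightly negative without DMSO replicate 1 (-0.02 ± 0.07 and -0.06 ± 0.10). SLC3A2 differed more between array sets, with means of 10.91 (set 1 without DMSO replicate 1) and 11.32, than between treatments.

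**Figure D2:**
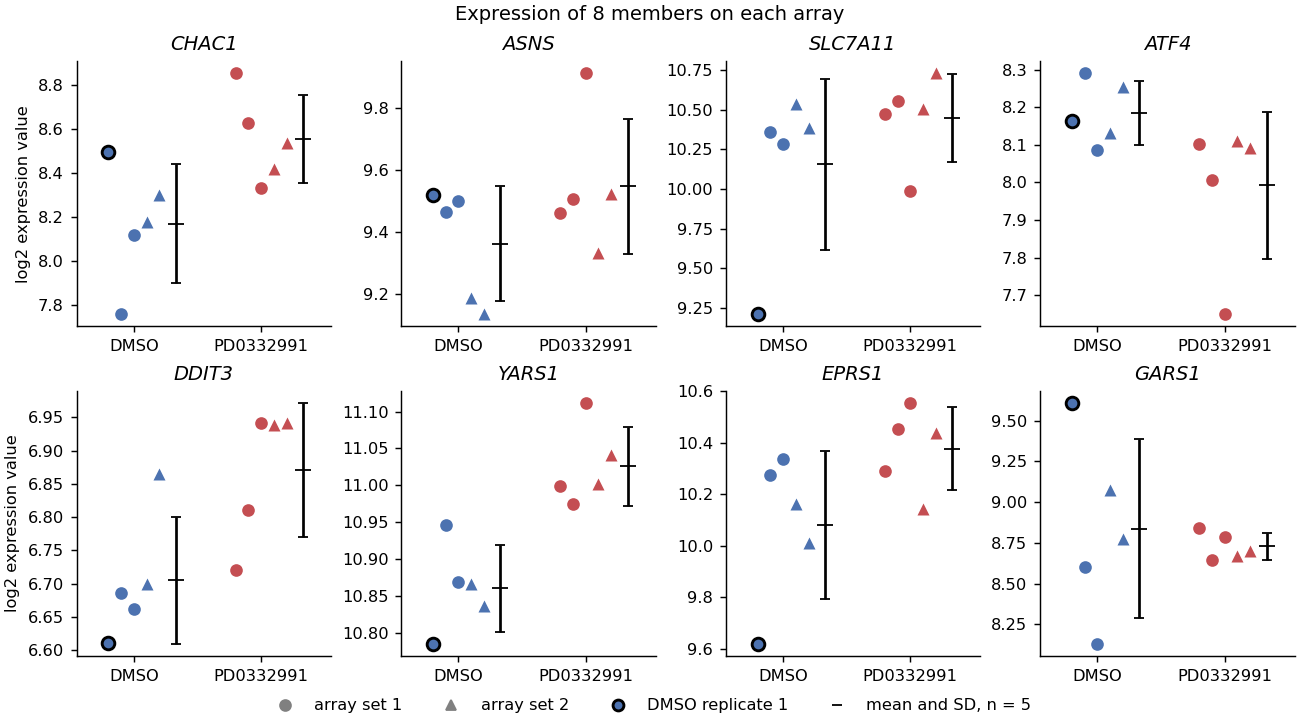
Log2 expression values of 8 members on each of the 10 arrays, by treatment, with array set 1 as circles and array set 2 as triangles. Black bars give the mean and SD of 5 arrays, DMSO replicate 1 is ringed, and each panel has its own axis, which does not start at 0. YARS1 is the one gene shown whose groups do not overlap, and DMSO replicate 1 lies far from the other DMSO arrays for SLC7A11, EPRS1 and GARS1.

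Aminoacyl-tRNA synthetases attach each amino acid to its tRNA, and several of the cytosolic ones are known ATF4 targets. Of the 17 measured, 16 had a positive log2 fold change, all below 0.30, and none passed the test. The median was 0.16, against -0.02 over all 14232 genes. It was 0.03 over the 3375 genes with a mean of at least 8.74, the highest upper quartile of any array. YARS1, the tyrosyl-tRNA synthetase, was the only member whose groups did not overlap. It was measured at 10.78, 10.95, 10.87, 10.87 and 10.84 in DMSO and at 11.00, 10.97, 11.11, 11.00 and 11.04 in PD0332991. Every PD0332991 array lay above every DMSO array, as for 0.214% of all probe sets; the reverse order held for 0.56% and for no member. The log2 fold change of YARS1 was 0.17 ± 0.08 (SE, n = 5 per group; 95% interval -0.02 to 0.35, limma adjusted p = 1.00), with 0.16 in array set 1, 0.17 in array set 2 and 0.14 ± 0.07 without DMSO replicate 1.

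Synthetases of the multi-tRNA synthetase complex, a cytosolic assembly, made up 7 of the 17, and all 7 had positive log2 fold changes with a median of 0.19. The median was 0.07 without DMSO replicate 1, again with 7 of 7 positive. EPRS1, the bifunctional enzyme for glutamate and proline, was the highest of them. It was measured at 9.62, 10.28, 10.34, 10.16 and 10.01 in DMSO and at 10.29, 10.45, 10.55, 10.14 and 10.44 in PD0332991. PD0332991 replicates 1 and 4 lay within the DMSO range, and DMSO replicate 1 was the lowest array. Its log2 fold change was 0.29 ± 0.15 (SE; 95% interval -0.04 to 0.63, limma adjusted p = 1.00), and 0.16 ± 0.09 without that array. The enzymes for arginine (RARS1), lysine (KARS1), leucine (LARS1), isoleucine (IARS1), methionine (MARS1) and glutamine (QARS1) had log2 fold changes of 0.21, 0.20, 0.19, 0.17, 0.16 and 0.09. Without DMSO replicate 1 these were 0.09, 0.08, 0.06, 0.06, 0.07 and 0.07.

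Outside the complex, NARS1, which charges tRNA with asparagine, had a log2 fold change of 0.28 ± 0.20 (SE), and 0.09 ± 0.12 without DMSO replicate 1. TARS1 and WARS1, for threonine and tryptophan, had 0.18 and 0.16, HARS1 and AARS1, for histidine and alanine, 0.13 and 0.12, and CARS1, for cysteine, 0.11. SARS1 and VARS1, for serine and valine, had 0.09 and 0.07. Without DMSO replicate 1 these 7 lay between -0.03 for AARS1 and 0.11 for WARS1. With PD0332991 replicate 3 left out instead, TARS1, WARS1 and HARS1 had 0.11, 0.10 and 0.075. GARS1, the glycyl-tRNA synthetase, went the other way. It was measured at 9.61, 8.60, 8.13, 9.07 and 8.77 in DMSO and at 8.84, 8.64, 8.79, 8.67 and 8.70 in PD0332991. DMSO values were widely scattered (SD 0.55) and PD0332991 values close together (SD 0.08), and DMSO replicate 1 was the highest of all arrays. Its log2 fold change was -0.11 ± 0.23 (SE), and 0.11 ± 0.16 without that array. It was -0.30 without DMSO replicate 3, -0.17 without DMSO replicate 2 and -0.042 without DMSO replicate 4.

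**Figure D3:**
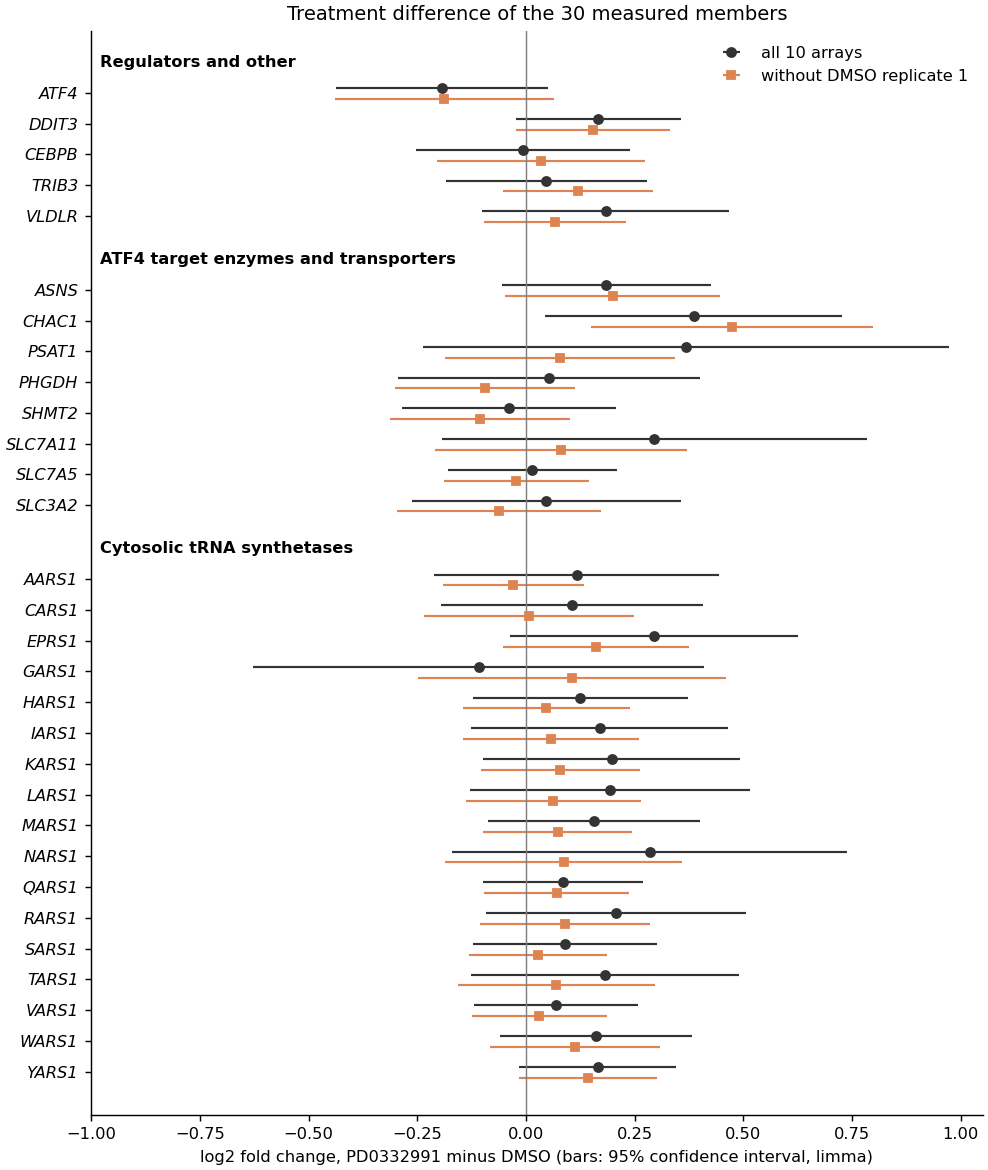
Log2 fold changes, PD0332991 minus DMSO, of the 30 measured genes in 3 groups, from all 10 arrays (circles) and without DMSO replicate 1 (squares). Bars are 95% confidence intervals from limma; they include 0 for every gene except CHAC1, in both fits. All 17 synthetase values lie closer to 0 without DMSO replicate 1.

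The ATF4 targets and the synthetases were then set side by side. The 8 measured targets had a median log2 fold change of 0.12 and the 17 synthetases one of 0.16, a difference of -0.04. The list medians on single arrays varied with SDs of 0.25 and 0.20, and their difference with an SD of 0.18, within treatment and array set. Without DMSO replicate 1 these SDs were 0.15, 0.083 and 0.19. The difference between the groups was smaller than its SD on single arrays in both cases. A single-array SD is wider than the error of a contrast with 5 arrays per treatment, so this comparison decides nothing. The difference itself was not tested. A positive value was seen for 7 of 8 targets (the exception was SHMT2) and 16 of 17 synthetases (GARS1), against 44.7% of all genes. Among the 3375 genes with a mean of at least 8.74 it was 58.7%, and among measured reference genes 8 of 12. Quantile normalization between arrays makes their distributions equal. After it, 6 of 8 targets and 16 of 17 synthetases were positive, against 50.2% of all genes and 53.7% of those 3375. The targets were the more uneven group, with CHAC1, PSAT1 and SLC7A11 between 0.29 and 0.39 and the other 5 at 0.19 or below, whereas 14 of the 17 synthetases were at 0.07 to 0.21. In array set 2 alone, 5 of 8 targets and 13 of 17 synthetases had positive values, with medians of 0.10 and 0.09.

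Much of the positive shift in both groups went with a single array. DMSO replicate 1 held the lowest of the 10 values for 16 of 17 synthetases (94.1%) and 6 of 8 targets. The same held for 22.4% of all genes and for 43.0% of the 3375 genes with a mean of at least 8.74, the highest upper quartile of any array. Its median deviation from each gene's mean was -0.41 for the synthetases and -0.46 for the targets. It was -0.42 for the 12 measured reference genes and -0.16 for those 3375 genes, so the drop was not particular to the members. On the other 9 arrays the synthetases lay between -0.03 and 0.16. For single genes the other 4 DMSO arrays averaged up to 1.18 above DMSO replicate 1 (SLC7A11), 1.13 for PSAT1 and 0.88 for PHGDH. Among the synthetases NARS1 showed the widest such gap, 0.78. After quantile normalization DMSO replicate 1 was still the lowest for 14 of 17 synthetases, with a median deviation of -0.34. That of the reference genes was -0.33.

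Without that array the median was 0.07 for the synthetases, with 16 of 17 positive (AARS1 was the exception), and 0.03 for the targets, with 4 of 8 positive. Over all genes it was 0.01 with 53.2% positive, and over the 3375 genes with a mean of at least 8.74 it was -0.0004 with 49.8% positive. No member passed the adjusted threshold in that fit either, and the smallest adjusted p was that of CHAC1. Why DMSO replicate 1 differs was not tested.

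**Figure D4:**
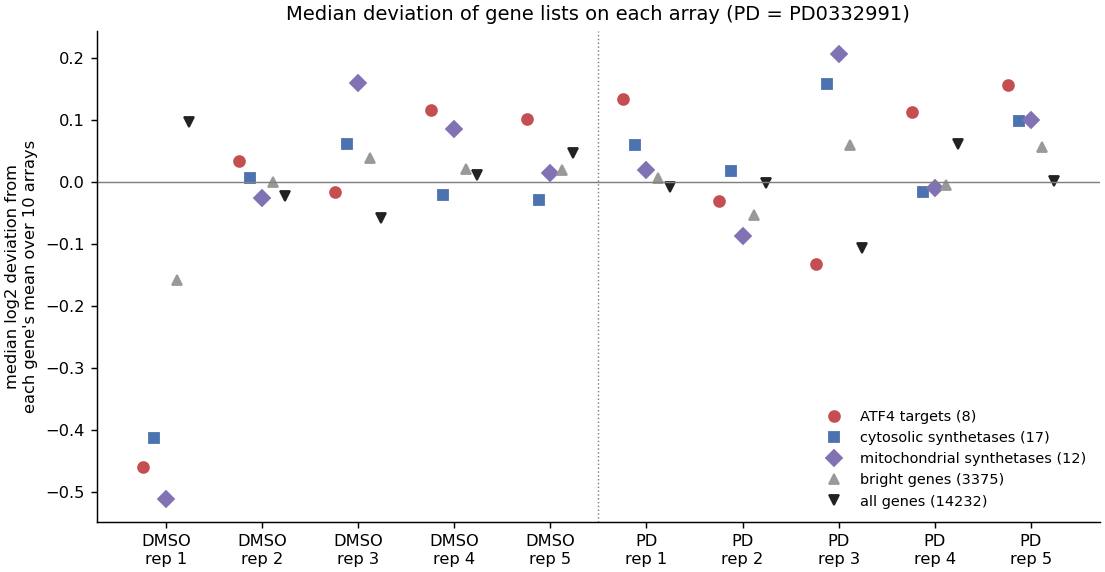
Median deviation, in log2 units, of 5 gene lists from each gene's mean over 10 arrays, for each array; the dotted line divides DMSO from PD0332991 (PD), and the legend gives genes per list. On DMSO replicate 1 the targets (-0.46), cytosolic synthetases (-0.41) and mitochondrial synthetases (-0.51) lie far below the other arrays. The bright genes (mean of at least 8.74) lie at -0.16 there, and all genes at 0.10. The 12 measured reference genes, not plotted, had -0.42.

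Genes around the members were read from the same fit. The mitochondrial synthetases, which charge tRNAs inside the organelle, had a median log2 fold change of 0.08 with 9 of 12 measured genes positive, and of -0.01 with 5 of 12 positive without DMSO replicate 1. It was 0.14 without DMSO replicate 3, 0.13 without DMSO replicate 4 and 0.05 without PD0332991 replicate 3. None passed; LARS2 and IARS2 had 0.29 and 0.25, TARS2 0.13 and AARS2 -0.12, and without DMSO replicate 1 these were 0.10, 0.10, 0.04 and -0.15. The kinases and partners of eIF2 had a median of 0.10 with 7 of 8 positive (6 of 8 after quantile normalization), and none passed. The median was 0.06 without DMSO replicate 1, 0.03 without PD0332991 replicate 3 and 0.15 without PD0332991 replicate 1. EIF2AK3, the kinase PERK, had 0.26 ± 0.13 (SE; limma adjusted p = 1.00), and EIF2AK4, the kinase GCN2, 0.14 ± 0.10; without DMSO replicate 1 they had 0.19 and 0.11. EIF2S1, the phosphorylated subunit of eIF2, had 0.15, and IMPACT, an inhibitor of GCN2 activation, 0.13, and without that array they had 0.04 and -0.01. Of 2 measured scaffold or subunit genes, FARSA had -0.06 and AIMP1 -0.02; without DMSO replicate 1 they had -0.05 and 0.06, and in array set 2 alone 0.04 and 0.05.

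In 19 other measured amino acid response genes the median was 0.10, with 14 positive, and 1 passed. Over all genes 44.7% were positive, and 0.05% of all probe sets passed. The median of the 19 was 0.06, with 13 positive, without DMSO replicate 1, where 53.2% of all genes were positive. The gene that passed was DDIT4, a stress-induced inhibitor of mTORC1, with a log2 fold change of 1.28 ± 0.09 (SE, limma adjusted p = 0.00177). SLC38A2, a neutral amino acid transporter, had 0.27 ± 0.09 (limma adjusted p = 0.997). SESN2, a leucine-binding inhibitor of mTORC1, had 0.21 ± 0.08 and NUPR1, a stress-induced transcription cofactor, 0.29 ± 0.12 (limma adjusted p = 1.00 for both). All 4 were positive in both array sets and without DMSO replicate 1. They are named for having the smallest p of the list in these same arrays, so these signs are no separate support. The 12 measured reference genes had a median of 0.12, close to those of the targets and synthetases, and of -0.0017 without DMSO replicate 1. Among them TBP, the TATA-binding protein, had -0.33 ± 0.11 (limma adjusted p = 0.893), IPO8 0.30, PPIA 0.22 and POLR2A -0.16. Without DMSO replicate 1 TBP had -0.37, IPO8 0.08, PPIA 0.07 and POLR2A -0.09, and PPIA had 0.48 in array set 1 and -0.18 in array set 2. The median of the list was 0.066 without PD0332991 replicate 3, 0.056 without PD0332991 replicate 5 and 0.077 without DMSO replicate 5.

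Synthetases with and without the core in a promoter window were set side by side. The 7 with it had log2 fold changes from -0.11 to 0.28 with a median of 0.16, and the 7 with a window and no core had 0.09 to 0.29 with a median of 0.16. Without DMSO replicate 1 the medians were 0.07 and 0.08. A test of treatment against array set found 0 of 30 members and 0 of all probe sets past the threshold (limma interaction term, smallest adjusted p of a member 1.00). At an unadjusted p under 0.05 it found 0 of 30 members and 562 of 21980 probe sets. At so small a share over all probe sets, 0 of 30 says nothing particular about the members.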

How the data were processed

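The authors deposited 1 table of log2 expression values per gene-level probe set and array. Per the submitters' processing notes, RMA, Partek and the build hg18 were used, with no versions given; RMA makes fold changes of dim genes smaller. Values were used as deposited. Probe sets were named through the platform annotation, with symbols checked by Entrez identifier in a RefSeq gene table; 14432 carried 1 symbol, 2408 several and 5140 none. A gene with several single-symbol probe sets was represented by the one with the highest mean. The treatment term was fitted in R 4.3.3 by limma 3.58.1 (lmFit, eBayes, 2-sided, array set as covariate, adjusted p under 0.05 over 21980 probe sets), after a check on simulated data. The p-values are read from that fit, and no p was computed over a gene list.

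Members, lists and tests were chosen with earlier results of these data known. The named genes are every measured member and, from each other list, up to 4 genes with the smallest p. Replicate numbers were checked for pairing: deviations of same-numbered arrays correlated at 0.09, 0.02, 0.40, -0.05 and -0.05, so the numbers were not treated as pairs. Promoter windows came from RefSeq (GRCh38.p14). Alternatives changed the model, the normalization, the probe sets tested, the variance moderation and the arrays used. The number of arrays limits the precision. Figures used Matplotlib 3.10.9 under Python 3.11.15.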

Additional observations from a re-analysis of the deposited data

Results flagged for a closer look

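In 6 of 60 groups of 5 arrays 1 value stood far from the other 4 (Dixon's test at 95%); chance alone flags about 5% of such groups. DMSO replicate 1 was the low value in 5 of them. It read 9.21 for SLC7A11, 10.12 for AARS1, 9.93 for KARS1, 9.88 for RARS1 and 8.89 for WARS1. The sixth was PD0332991 replicate 3 for ATF4, at 7.65.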

How the results depend on the processing

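No member passed the adjusted threshold with all 10 arrays or under any of 21 alternatives, and the smallest adjusted p of any was 0.325 (CHAC1 with array weights). The count of members at an unadjusted p under 0.05 was 1. It was 2 with the replicate block in place of array set (CHAC1 and EPRS1) and 2 with trend and robust moderation (CHAC1 and YARS1). Of all 21980 probe sets, 435 were higher and 750 lower in the first fit, and 337 and 595 in the second. The count was also 2 after quantile normalization without DMSO replicate 1 (CHAC1 and ASNS), an alternative chosen after seeing the data. There 607 probe sets were higher and 824 lower. It was 0 in array set 1 or array set 2 alone. Those fits had 181 and 560 probe sets higher, and 445 and 710 lower. Such small counts are not read as a result about the members. Leaving out 1 array at a time gave 0 to 1 members, against 211 to 469 probe sets higher and 460 to 818 lower. The count was 0 without DMSO replicate 2 or 4 or PD0332991 replicate 1, 2 or 5. Without DMSO replicate 3, EPRS1 took the place of CHAC1. CHAC1 had an unadjusted limma p from 0.00608 to 0.114 over the main fit and all alternatives. The median of the targets ran from 0.02 to 0.16 and that of the synthetases from 0.06 to 0.20. The replicate block made no adjusted call. It left both medians at 0.12 and 0.16, which was fixed in advance, because each replicate number holds both treatments. The difference between the medians, -0.042 with all arrays, was -0.0048 without PD0332991 replicate 3, -0.00098 with array weights and 0.0084 in array set 2 alone.

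Of the 30 members, 20 kept their sign in every fit and 10 did not. Dropping array set, the replicate block, testing fewer probe sets and changed variance moderation cannot alter a member's log2 fold change here. Those fits could therefore show no change of sign. The log2 fold change of SLC7A5 was -0.018 after quantile normalization and -0.043 after cyclic loess. With array weights the values were PHGDH -0.057, SLC3A2 -0.025 and GARS1 0.019. In array set 1 alone the values were SHMT2 0.013, CEBPB 0.093 and TRIB3 -0.057, and in array set 2 alone PHGDH -0.16, SLC3A2 -0.0066, AARS1 -0.047, SARS1 -0.0043 and VARS1 -0.033. After quantile normalization without DMSO replicate 1 they were PHGDH -0.11, SLC7A5 -0.037, SLC3A2 -0.075, CEBPB 0.045, AARS1 -0.040 and GARS1 0.12. Leaving out 1 array at a time gave -0.094 to 0.11 for PHGDH, -0.11 to 0.0084 for SHMT2, -0.022 to 0.044 for SLC7A5, -0.062 to 0.14 for SLC3A2, -0.074 to 0.055 for CEBPB, -0.029 to 0.17 for AARS1 and -0.30 to 0.11 for GARS1. The cause of these changes was not tested. The planned mean over a gene's probe sets gives the same values, since each member has 1.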
